A study of Homo sapiens with 6 samples.

Results

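The response of HCC15 cells to silencing of LGR6 was described from 3 of the 6 RNA sequencing libraries of the study. HCC15 is an established human non-small cell lung carcinoma line, wild type by its label. Its 3 libraries differ in the transfected siRNA, which was LGR6 siRNA 2, LGR6 siRNA 4 or, as the control, one labelled Tax siRNA. The other 3 libraries are the same treatments of A427, a second line with the same tumour label. They entered the fits of all 6 libraries, and their values are set beside those of HCC15 for some genes and lists. All cells were grown in RPMI 1640 with 5% serum and taken 48 h after transfection. Each siRNA was sequenced in 1 library per line, the siRNA sequences are not given in the sources used here, and nothing states whether separate cultures were made. The siRNAs are therefore different reagents rather than replicates, and both were set against the same control library. A deviation of that library and an effect of silencing cannot be told apart within HCC15.

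LGR6 is a seven-transmembrane receptor of the leucine-rich repeat family, close to LGR4 and LGR5. These receptors bind R-spondins, secreted proteins that act on the membrane ubiquitin ligases RNF43 and ZNRF3. The ligases remove Frizzled and its co-receptors LRP5 and LRP6 from the cell surface, and R-spondin bound to an LGR receptor takes the ligases away and so strengthens Wnt signalling. LGR5 and LGR6 mark stem or progenitor cells in several epithelia.

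LGR6 was lower with both siRNAs. LGR6 had 257 reads in the HCC15 control library, against 39 after siRNA 2 and 77 after siRNA 4. As CPM, counts scaled to the total reads of the library, these were 9.32 (95% exact binomial interval 8.21 to 10.5), 1.35 (0.957 to 1.84) and 2.87 (2.27 to 3.59). The intervals of the 3 libraries did not overlap, and they cover counting error only. Relative to the control library this is 14.4% for siRNA 2 (interval 10% to 20.3%) and 30.9% for siRNA 4 (23.6% to 40.0%). LGR6 was the gene with rank 5 from the lowest difference with siRNA 2 and rank 203 with siRNA 4, among 12339 genes with a mean of at least 1 CPM in HCC15. The A427 libraries held 5, 0 and 0 LGR6 reads in the same order, and the 95% exact binomial interval of 0 reads reaches 0.144 CPM with siRNA 2 and 0.141 CPM with siRNA 4.

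The other receptors and the ligases were expressed in HCC15, while the ligands had few or no reads. Compared per transcript length (TPM), LGR4 stood above LGR6 in the control, at 35.1 TPM against 5.95 TPM, and LGR5 stood near LGR6 at 6.72 TPM. LGR4 was at 50.9 TPM with siRNA 2 and 26.4 TPM with siRNA 4, and LGR5 at 8.23 and 3.63 TPM, so both lay above the control with 1 siRNA and below it with the other. RNF43 was above the control with both, at 8.33, 15.3 and 12 TPM in control, siRNA 2 and siRNA 4, but by less than 2-fold. ZNRF3 was at 18.9, 25.2 and 16.0 TPM. LRP5 was at 49.1, 78.0 and 43.9 TPM and LRP6 at 14.7, 20.1 and 14.7 TPM. Of the R-spondin genes, RSPO2 and RSPO3 had 0 reads in all 3 libraries, RSPO1 had 0, 1 and 0, and RSPO4 had 13, 13 and 17. Of these 11 genes 7 had a mean of at least 1 CPM, and LGR6 was the 1 of the 7 that differed 2-fold in the same direction with both siRNAs.

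**Figure D1:**
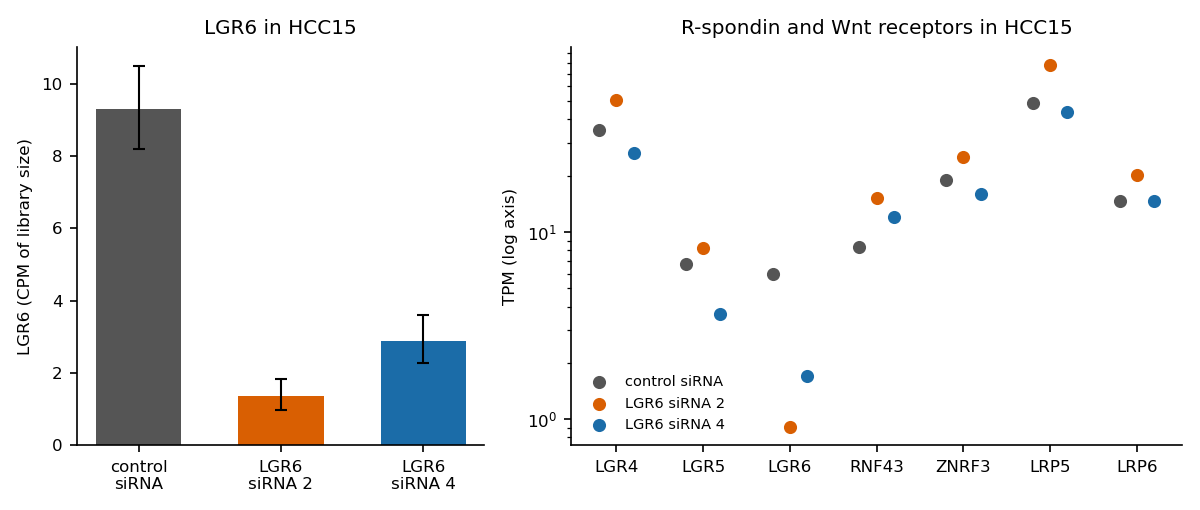
LGR6 and its partners in HCC15. Left, LGR6 in CPM of library size in the control, siRNA 2 and siRNA 4 libraries (bars start at 0, lines are 95% exact binomial intervals), with 9.32, 1.35 and 2.87 CPM. Right, TPM on a log axis of 7 receptors and ligases, 1 point per library, where LGR6 is the gene with both siRNA points far below the control.

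Differences are given below as log2(CPM + 0.5) of an siRNA library minus that of the control library, with library sizes scaled by TMM. With 1 library against 1, no such difference has a test. siRNA 2 was associated with 172 genes at least 2-fold higher (1.39% of the 12339) and 336 at least 2-fold lower (2.72%). siRNA 4 had 219 higher (1.77%) and 705 lower (5.71%). Most genes stayed close to the control, with 84.0% within 1.5-fold for siRNA 2 and 78.3% for siRNA 4. On the deposited TPM the share of higher genes among those past 2-fold was 48.1% for siRNA 2, against 33.9% on the CPM scale, so the balance of higher and lower genes with that siRNA depends on the scale.

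Genes past 2-fold in the same direction with both siRNAs numbered 46 higher (0.373% of genes) and 75 lower (0.608%). The 46 make up 26.7% of the genes higher with siRNA 2 and 21.0% of those higher with siRNA 4, and the 75 make up 22.3% and 10.6% of the lower genes. Most 2-fold differences thus passed the limit with 1 siRNA and not with the other. The 2-fold limit falls in a continuous range. The smaller of a gene's differences lay between 1 and 1.1 in size for 29 genes, just inside, and between 0.9 and 1 for 65 genes, just outside. By mean level, 42 of these 121 genes were at 50 CPM or more, which is 0.886% of the 4743 genes at that level. At 1 to 5 CPM there were 22, which is 1.23% of 1790 genes.

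**Figure D2:**
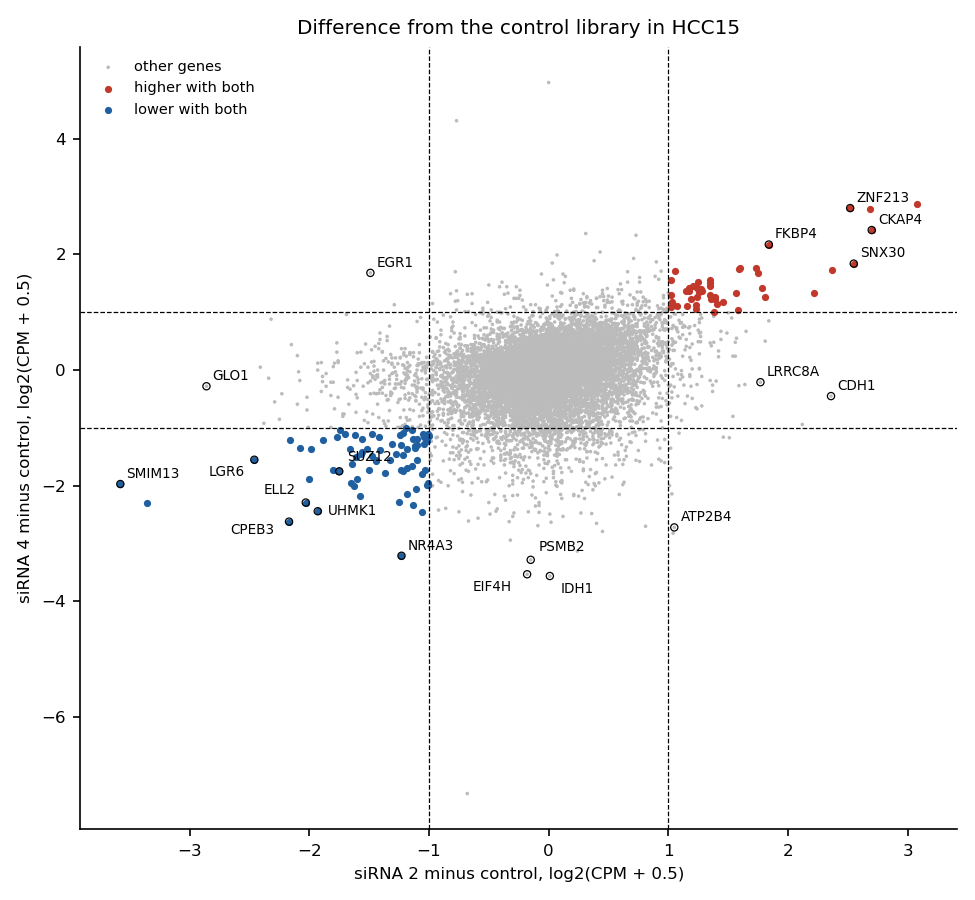
Difference from the control library in HCC15, log2(CPM + 0.5), for siRNA 2 (x axis) and siRNA 4 (y axis), 1 point per gene for 12339 genes. Dashed lines mark 2-fold, red points are the 46 genes higher and blue points the 75 genes lower with both siRNAs, and circled genes are named. The axes share the control library, so the points are not independent comparisons.

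The genes furthest above the control with both siRNAs were led by ZNF213, CKAP4, SNX30 and FKBP4. ZNF213, a zinc finger protein gene, was at 2.47 CPM in the control, 16.6 with siRNA 2 and 20.2 with siRNA 4. CKAP4, a transmembrane protein found in the endoplasmic reticulum and, at the cell surface, a receptor for the Wnt antagonist DKK1, was at 32.6, 215 and 177 CPM. The sorting nexin SNX30 was at 13.4, 80.9 and 49.2 CPM. These were differences of 2.52 and 2.80 for ZNF213, 2.70 and 2.42 for CKAP4, and 2.55 and 1.84 for SNX30, with siRNA 2 and siRNA 4 in that order. FKBP4, a co-chaperone of HSP90 in steroid receptor complexes, was at 128, 458 and 578 CPM. RHEB, the small GTPase that activates mTORC1, was at 52.9, 177 and 182 CPM, which is 3.32-fold and 3.42-fold above the control. TGFBR1, the type I receptor for TGF-beta, was at 9.39, 33.6 and 25.9 CPM. In each of these genes both siRNA libraries were above the control, with SNX30 the most uneven between the siRNAs.

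Among the other genes that stood highest, FBXW5, a substrate receptor of ubiquitin ligases, was at 30.9, 94.5 and 106 CPM. SEP15, a selenoprotein of the endoplasmic reticulum, was at 62.1, 188 and 211 CPM. The circadian gene PER3 was at 2.81, 7.96 and 8.85 CPM. TMEM144 was at 2.97, 17.4 and 11.0 CPM and LDLRAD3 at 7.49, 23.2 and 19.5 CPM. HDAC3, the catalytic subunit of the NCoR and SMRT corepressor complexes, was at 22, 58.3 and 52.3 CPM. It was the 1 member past 2-fold with both siRNAs among 16 histone deacetylase genes measured, as RHEB was among 25 genes of the mTORC1 pathway and FKBP4 among 20 of the heat shock response. Over all genes 0.373% were higher with both.

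Furthest below the control with both siRNAs were CPEB3 and ELL2. CPEB3, which binds cytoplasmic polyadenylation elements and regulates translation, was at 26.8 CPM in the control, 5.58 with siRNA 2 and 3.94 with siRNA 4. ELL2, an elongation factor of RNA polymerase II, was at 65.3, 15.6 and 13.0 CPM. The differences were -2.17 and -2.62 for CPEB3 and -2.03 and -2.29 for ELL2. SUZ12, a core subunit of Polycomb repressive complex 2, was at 111 CPM in the control and 32.6 CPM with either siRNA, and was the 1 member past 2-fold with both siRNAs among 23 Polycomb genes, where 0.608% of all genes were lower with both. LCOR, a corepressor of nuclear receptors, was at 96.2, 34.3 and 34.1 CPM. CSRP2BP, a subunit of an acetyltransferase complex, was at 12.3, 3.68 and 3.98 CPM. For SUZ12, LCOR and CSRP2BP the values with the 2 siRNAs were almost equal.

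Kinases, membrane proteins and enzymes made up the rest of the lowest genes. UHMK1, a kinase of splicing factors, was at 483, 126 and 88.4 CPM, and HIPK3, a nuclear serine/threonine kinase, at 174, 55.7 and 56.2 CPM. SMIM13, a small membrane protein gene, differed between the siRNAs, at 188, 15.3 and 47.8 CPM. SDPR, a protein of caveolae, was at 60.3, 16.9 and 18.0 CPM, and it had 4, 0 and 2 reads in A427. DDAH1, which breaks down asymmetric dimethylarginine, was at 387, 125 and 96.3 CPM, and the mitochondrial carrier SLC25A30 at 33.2, 11.5 and 9.70 CPM. All of these genes kept the control above both siRNA libraries by at least 2.82-fold.

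**Figure D3:**
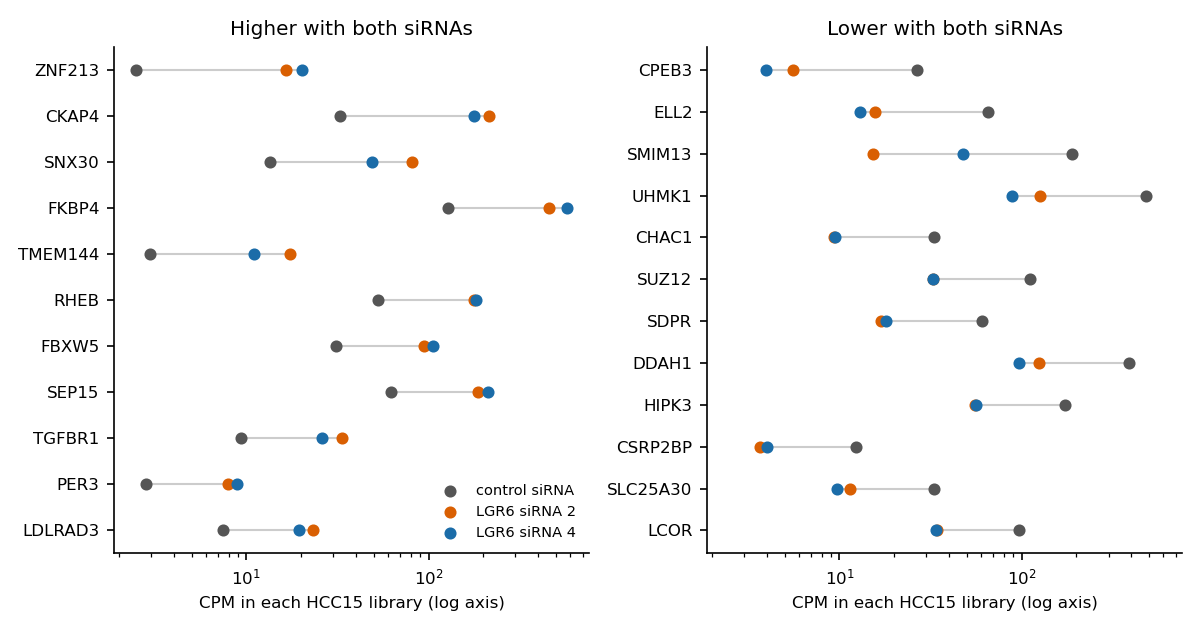
CPM on a log axis in each HCC15 library for the genes with the largest differences shared by the siRNAs, 11 higher and 12 lower, 1 point per library. In each row the siRNA 2 and siRNA 4 points lie on the same side of the control point, and for SUZ12 they coincide at 32.6 CPM.

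ATF4 is the transcription factor of the amino acid and integrated stress response, which turns on amino acid synthesis, transport and glutathione metabolism genes when amino acids run short. Of the 34 genes of that list, 4 were at least 2-fold lower with both siRNAs, which is 11.8% against 0.608% of all genes, and none was 2-fold higher with both. The list's median difference was -0.66 with siRNA 2 and -0.45 with siRNA 4, where all genes had medians of -0.00 and 0.01. 24 of the 34 (70.6%) were below the control with both siRNAs, as were 28.6% of all genes. In A427 the list's medians were -0.16 and -0.12. The list was chosen with earlier results of these data known, so its direction is a description.

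CHAC1, which degrades glutathione, was at 33.0 CPM in the control, 9.36 with siRNA 2 and 9.43 with siRNA 4. ASNS, which makes asparagine, was at 627, 269 and 187 CPM. PSAT1, an enzyme of serine synthesis, was at 794, 232 and 355 CPM, and the secreted glycoprotein hormone STC2 at 205, 90.0 and 79.3 CPM. All 4 genes were at least 2.23-fold below the control in both siRNA libraries. Outside the list, 2 genes were picked because their values were low. BCAT1, the cytosolic aminotransferase of branched-chain amino acids, was at 1080, 374 and 421 CPM, and ASS1, which joins citrulline and aspartate, at 239, 119 and 59.9 CPM. The 20 cytosolic aminoacyl-tRNA synthetase genes, which charge tRNAs, had medians of -0.35 and -0.21 and no member past 2-fold with both, NARS at 374, 133 and 281 CPM being the lowest with siRNA 2.

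The promoters of 3 of the lower genes are shown because they hold the letters bound by the factor that defines their list. The sequences are the 250 bases before the RefSeq start on GRCh38.p14, 5′ to 3′ on the strand of the gene, whereas the counts were made on hg19. Capitals mark TGATGNAA, the ATF4 composite element, or its reverse complement TTNCATCA, in CHAC1 and ASNS, and GGAATG, the element of the TEAD factors that carry YAP and TAZ, in CTGF.
CHAC1, chr15:40953221-40953470, plus strand: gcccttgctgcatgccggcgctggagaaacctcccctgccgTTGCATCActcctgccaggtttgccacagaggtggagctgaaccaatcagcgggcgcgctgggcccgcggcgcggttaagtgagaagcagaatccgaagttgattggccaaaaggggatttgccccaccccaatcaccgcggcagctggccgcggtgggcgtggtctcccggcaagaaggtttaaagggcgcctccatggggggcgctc
ASNS, chr7:97872409-97872658, minus strand: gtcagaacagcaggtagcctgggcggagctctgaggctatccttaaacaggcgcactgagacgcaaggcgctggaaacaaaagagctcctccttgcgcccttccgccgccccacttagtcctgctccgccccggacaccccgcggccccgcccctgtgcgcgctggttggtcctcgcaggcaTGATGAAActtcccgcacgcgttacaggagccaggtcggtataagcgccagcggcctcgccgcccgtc
CTGF, chr6:131951373-131951622, minus strand: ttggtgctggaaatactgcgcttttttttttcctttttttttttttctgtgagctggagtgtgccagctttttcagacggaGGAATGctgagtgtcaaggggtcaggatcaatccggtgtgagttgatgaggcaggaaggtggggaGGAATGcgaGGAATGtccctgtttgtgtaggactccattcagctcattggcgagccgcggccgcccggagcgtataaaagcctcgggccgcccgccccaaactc
The CHAC1 match begins 209 bases before the start, and the ASNS match 68 bases before it. The 3 CTGF matches begin 169, 104 and 95 bases before the start. Searched on both strands of the window from 250 bases before to 50 after the start, TGATGNAA was in 3.62% of 35116 RefSeq promoters and in 1.54% of those of genes measured in HCC15. It was in 4 of the 55 lower genes with a promoter in the table (7.27%), which were CHAC1, ASNS, BCAT1 and FUT1, and in 0 of the 37 higher genes. The windows of STC2 and PSAT1 hold no match. GGAATG was in 10 of the 55 lower genes (18.2%), 3 of the 37 higher genes (8.11%), 10.4% of genes measured in HCC15 and 14% of all promoters. TGACGTCA, the cAMP response element, was in none of either set, in 3.31% of measured genes and in 1.85% of all promoters, and TGACNNNGC, the antioxidant element, was in 16.4% of the lower, 16.2% of the higher, 15.2% of measured genes and 13.3% of all. A match is a stretch of letters and not a measured binding site.

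CTGF, a matricellular protein and widely used target of YAP and TAZ, was at 688 CPM in the control, 254 with siRNA 2 and 233 with siRNA 4. It was the 1 gene past 2-fold with both siRNAs among 25 YAP/TAZ targets, of which 7 were 2-fold lower with siRNA 4, against 5.71% of all genes, and 1 with siRNA 2, against 2.72%. The list's medians were -0.08 and -0.46 in HCC15 and -0.26 and -0.45 in A427, where CTGF was at 1540, 1250 and 730 CPM. Among 20 cAMP/CREB and immediate early genes, the nuclear receptors NR4A3 and NR4A2 were at least 2-fold lower with both (10%, against 0.608% of all genes). The medians of these 20 genes were -0.25 and -0.26 in HCC15 and 0.13 and -0.09 in A427. The immediate early gene EGR1 differed in opposite directions, by -1.49 with siRNA 2 and 1.68 with siRNA 4. NR4A3 was at 32.6, 13.6 and 3.08 CPM and NR4A2 at 53.9, 24.6 and 12.7 CPM, so siRNA 4 had the lower value in each. TAGLN, an actin-binding protein of contractile cells, was at 20.5, 6.56 and 7.17 CPM, and the secreted metalloproteinase MMP10 at 6.27, 1.19 and 1.33 CPM. Each was the 1 gene of its list past 2-fold with both siRNAs, where 0.608% of all genes were lower with both. The list of TAGLN, 16 mesenchymal and EMT genes, had medians of 0.18 and 0.12, with 7 genes above the control with both and 3 below. That of MMP10, 17 integrins, metalloproteinases and inhibitors, had medians of 0.32 and 0.06, with 9 above and 1 below. Transglutaminase TGM2, chosen after its values were seen, was at 1770, 662 and 792 CPM.

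Wnt signalling targets showed no shared direction. None of 21 Wnt/beta-catenin target genes measured was 2-fold apart in the same direction with both siRNAs, against 0.373% higher and 0.608% lower over all genes, and the medians were 0.10 and -0.12. NOTUM, a secreted enzyme that removes the lipid of Wnt proteins, was at 123, 83.4 and 56.4 CPM, with differences of -0.56 and -1.12. EPHB2, a receptor kinase, was at 4.03, 8.27 and 5.85 CPM. Cell cycle and p53 lists also had medians near the control. The p53 targets still leaned to 1 side. Of the 20 measured, 10 (50%) were below the control with both siRNAs, against 28.6% of all genes, and 2 were above it with both. Medians were -0.02 and 0.17 over 26 DNA replication genes, 0.19 and -0.10 over 25 mitosis genes and -0.09 and -0.20 over 20 p53 targets, with no member past 2-fold with both siRNAs. The same count of 0 held for 26 interferon-stimulated genes (0.10 and 0.01) and for 13 genes of the RNA interference machinery (-0.10 and -0.09). In lists of these sizes a count of 0 is near the share over all genes.

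Several other lists had medians that were unlike with the siRNAs. NF-kappaB and inflammatory genes had a median of -0.21 with siRNA 2 and 0.80 with siRNA 4, where 6 of 13 were 2-fold higher, against 1.77% of all genes, among them ICAM1 (28.3, 51.1 and 60.3 CPM) and IL8 (7.23, 7.99 and 23.3 CPM). NRF2 targets had medians of 0.04 and 0.47, with OSGIN1 at 38.6, 62.2 and 95.9 CPM. Sterol and fatty acid synthesis genes had medians of 0.53 and -0.09. Epithelial adhesion and keratin genes had 0.18 and -0.44. CDH1, the epithelial cadherin, was at 19.5 CPM in the control, 102 with siRNA 2 and 14.1 with siRNA 4. These are values of single libraries, and the difference between the siRNAs was not tested. Endoplasmic reticulum chaperones lay on the same side with both, with medians of 0.36 and 0.24 and 11 of 22 above the control with both (50%, against 29% of all genes). None was 2-fold apart with both, and HYOU1 was at 288, 406 and 458 CPM.

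**Figure D4:**
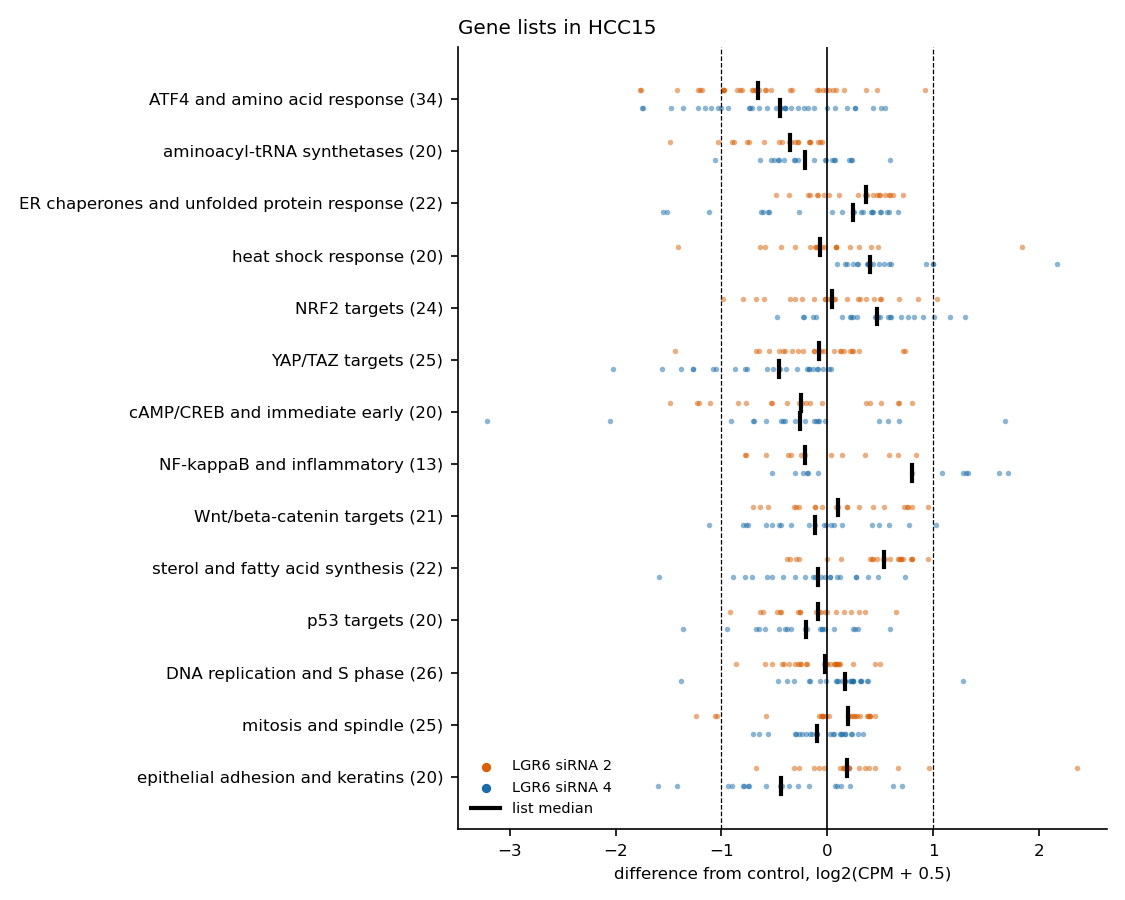
Difference from control in HCC15, log2(CPM + 0.5), for 14 gene lists, 1 point per measured gene and siRNA (number measured in brackets), with black bars at the list medians and dashed lines at 2-fold. The ATF4 list has medians of -0.66 and -0.45, and the NF-kappaB list has -0.21 with siRNA 2 and 0.80 with siRNA 4.

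Some of the largest differences were seen with 1 siRNA while the other stayed within 0.3 of the control on the log2 scale. With siRNA 2 this was the case for 134 of 336 lower and 36 of 172 higher genes. The 336 and 172 genes past 2-fold are 2.72% and 1.39% of all genes. With siRNA 4 it was so for 311 of 705 lower and 58 of 219 higher genes, where the 705 and 219 are 5.71% and 1.77% of all genes. Values near the control were common among all genes, with 84.0% within 1.5-fold for siRNA 2 and 78.3% for siRNA 4. That limit is wider than 0.3 on the log2 scale. The share of all genes within 0.3 was not counted, so the counts have no background of their own. GLO1, the glyoxalase that clears methylglyoxal, was at 434 CPM in the control, 59.3 with siRNA 2 and 357 with siRNA 4. VPS4B, an ATPase of the ESCRT pathway, was at 63.2, 12.1 and 57.2 CPM, and the corepressor subunit TBL1X at 122, 27.9 and 145 CPM. HNRNPH2 was at 118, 27.5 and 116 CPM. The volume-regulated anion channel subunit LRRC8A was highest with siRNA 2, at 26.4, 91.2 and 22.7 CPM, and the receptor kinase ERBB3 was at 8.48, 23.5 and 10 CPM.

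With siRNA 4 the larger differences were deeper. IDH1, cytosolic isocitrate dehydrogenase, was at 235 CPM in the control, 237 with siRNA 2 and 19.5 with siRNA 4. The translation initiation factor EIF4H was at 679, 598 and 58.2 CPM, and the proteasome subunit PSMB2 at 267, 241 and 27.1 CPM. TIMP3, an inhibitor of metalloproteinases, was at 12.4, 14.8 and 0.974 CPM, and the kinetochore gene CENPK at 39.8, 37.3 and 5.73 CPM. Each of these 5 genes was lower by more than LGR6 itself, which differed by -1.55 with that siRNA. GLO1, IDH1, EIF4H and PSMB2 also had their lowest value with the same siRNA in A427, where LGR6 had 0 reads with either siRNA. GLO1 was at 340, 107 and 232 CPM there. IDH1 was at 169, 153 and 34.0 CPM, EIF4H at 382, 366 and 71.6 CPM and PSMB2 at 172, 187 and 33.5 CPM. Effects of LGR6 and of the reagent cannot be told apart for a gene seen with 1 siRNA.

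HCC15 has 1 control library and 1 library per siRNA, so no test of silencing in this line rests on replicates. A model can be fitted only by counting the different siRNAs as samples of 1 silenced group, and its calls are given as a description of these libraries. edgeR's quasi-likelihood fit of all 6 libraries called 0 of 14481 genes (0.0%) at its threshold, an adjusted p of 0.05. Before adjustment 535 genes (3.69%) had a p under 0.05. The fit of the 3 HCC15 libraries alone also called 0, DESeq2 called 28 and limma 0. Adding the number of the siRNA as a replicate block takes out the siRNA 4 minus siRNA 2 difference that the lines share, and leaves 1 residual degree of freedom. With it edgeR called 114 genes (0.787%), 27 higher and 87 lower. These include 25 of the 46 higher and 47 of the 75 lower genes, among them LGR6, CKAP4 and SUZ12, from the same libraries that chose them, so the calls lend the genes no support.

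The A427 libraries have their own control, so they give values for the same genes that the HCC15 control does not enter, although the reagents were the same. Of the 46 genes higher in HCC15, 44 had a mean of at least 1 CPM in A427. There 15 of them (34.1%) were also at least 2-fold higher with both siRNAs, against 27 of 11577 genes measured in both lines (0.233%), and 41 were above the A427 control with both, against 32.9% of all genes. RPL36A-HNRNPH2, ANKRD20A1 and 1 gene that divides its reads with a near-identical copy were the 3 below it with both. For the 44 genes the median differences were 1.35 and 1.38 in HCC15 and 0.93 and 0.95 in A427. CKAP4 was at 30.6, 131 and 112 CPM in A427, and FKBP4 at 200, 684 and 557 CPM. Of the 75 lower genes 59 were measured in A427, where 9 (15.3%) were 2-fold lower with both against 28 of all genes (0.242%), and 55 were below the control with both against 30.4%. Medians were -1.28 and -1.48 in HCC15 and -0.88 and -0.79 in A427. CPEB3 was at 18.5, 5.95 and 4.13 CPM in A427, and SUZ12 at 212, 109 and 88.7 CPM. Most genes that differed with both siRNAs in HCC15 thus lay on the same side in A427, a line with 5 LGR6 reads in its control library.

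**Figure D5:**
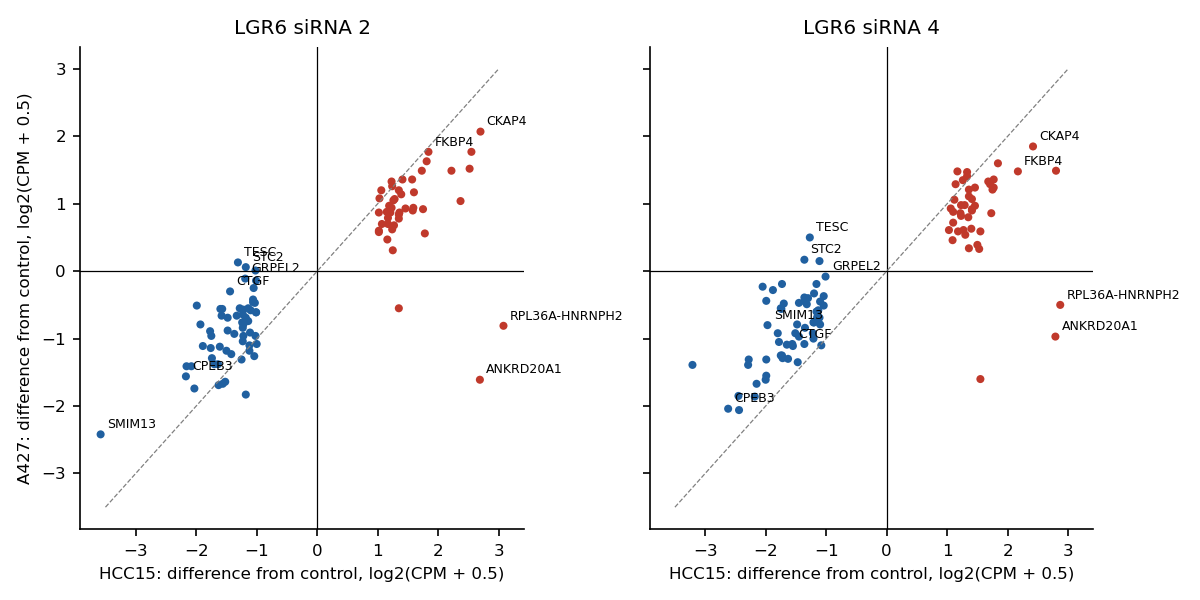
Difference from control, log2(CPM + 0.5), in HCC15 (x axis) and A427 (y axis) with siRNA 2 (left) and siRNA 4 (right), for the 44 higher (red) and 59 lower (blue) genes measured in both lines; the dashed line marks equal differences. 41 red and 55 blue genes lie on the same side of 0 in A427 with both siRNAs, and STC2 and TESC lie just above 0 there.

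No gene passed the test that compares the responses of the lines. The interaction term in edgeR called 0 of 14481 genes (0.0%), with 78 at an unadjusted p under 0.05 and 0 calls by DESeq2 or limma. The error of the edgeR test was the spread between the siRNA libraries within each line, on few residual degrees of freedom. A count of 0 from such a test does not show that the lines responded alike. Among the genes with the smallest p was STC2, at 205, 90.0 and 79.3 CPM in HCC15 and 14, 14.6 and 15.7 CPM in A427. TESC, a calcium-binding regulator of a sodium/proton exchanger, was at 34.1, 13.5 and 13.9 CPM in HCC15 and 10.9, 12 and 15.6 CPM in A427. RINL was at 4.53, 4.70 and 5.46 CPM in HCC15 and 4.90, 1.37 and 1.34 CPM in A427. The adjusted p was 1.0 for all 3 (edgeR, Benjamini-Hochberg). GRPEL2, a mitochondrial co-chaperone, and REC8, a meiotic cohesin, joined STC2 as lower genes of HCC15 that were within 0.3 of the control with both siRNAs in A427. GRPEL2 was at 112, 48.6 and 55.2 CPM in HCC15 and 61.3, 56.8 and 58.0 CPM in A427. REC8 had few reads, at 75, 32 and 27 in HCC15 and 32, 22 and 35 in A427. At such counts the pseudocount draws differences toward the control, so its place among these genes is uncertain. The remaining 3 genes with the smallest p, RPL36A-HNRNPH2, ANKRD20A1 and TGIF2-C20orf24, had 0 reads in the HCC15 control. They share sequence with neighbours or copies, so their reads can be split in different ways and their values are uncertain. RPL36A-HNRNPH2 had 0, 106 and 81 reads in HCC15 and 257, 126 and 167 in A427.

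The 3 HCC15 libraries held 26785113 to 28987906 reads assigned to genes, with 13112 to 13334 genes at 10 or more reads. Of 10 blood cell markers 1 was measured and 5 had 0 reads, with summed levels of 1.79 to 2.55 CPM, and of 8 endothelial markers 1 was measured, with 2.93 to 4.80 CPM in all. Of 8 fibroblast markers 2 were measured and 3 had 0 reads, and they summed to 19.2, 21.5 and 16.1 CPM, mostly from COL1A1 at 17.1, 19.5 and 14.7 CPM. Epithelial markers summed to 5290, 6580 and 3300 CPM, with 8 of 10 measured, so the carcinoma label has its epithelial genes. None of 10 lung lineage markers reached 1 CPM, and 7 had 0 reads. The epithelial sum was lowest with siRNA 4, and this was not tested. With that siRNA 1 of the 8 measured markers was at least 2-fold lower and 0 were higher, against 5.71% and 1.77% of all genes.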

How the data were processed

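RNA was prepared with a column kit and DNase and sequenced from KAPA mRNA HyperPrep libraries, per the labels' protocols. FastQC 0.11.1, STAR 2.5.3a, RSEM 1.3.3 and build hg19 are named in the submitters' processing notes, and no annotation for the counting is named there. The authors deposited expected counts, which RSEM estimates, and TPM for 23686 genes by symbol. Expected counts were rounded, since in each library 5.75% to 6.29% of them were not whole numbers. The deposited TPM served for levels between genes and as an alternative.

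CPM were scaled by TMM (edgeR 4.0.16, R 4.3.3), with a pseudocount of 0.5 CPM and genes with a mean of at least 1 CPM in HCC15. A gene moved alike when it was at least 2-fold apart in the same direction with each siRNA. edgeR's quasi-likelihood test used all 6 libraries with line by arm, a minimum of 10 reads in 2 or more libraries per gene, 2 residual degrees of freedom and Benjamini-Hochberg adjustment. DESeq2 1.42.0 and limma 3.58.1 were alternatives. The main edgeR fit, the fit with the replicate block, DESeq2, limma-voom and the count of genes moved alike were tested on simulated data. P-values measure only the spread between the siRNA 2 and siRNA 4 libraries within each line. That spread holds differences between the reagents and may also be technical. Pairs of HCC15 libraries differed well beyond sampling noise, with a chi-square of at least 86.7 per degree of freedom.

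Per the labels, an siRNA number stands for 1 reagent used in A427 and in HCC15, which pairs the libraries. The siRNA 4 minus siRNA 2 difference correlated between the lines at 0.513 over 14481 genes.

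Named genes were LGR6, the receptor complex, the 12 genes per direction with the largest smaller difference of the siRNAs (mean of at least 5 CPM, no read-through or unnamed loci), up to 5 per siRNA and direction for a difference with 1 siRNA, the 6 smallest p per test, and up to 4 members per gene list. 1 gene picked by this rule is left out since its reads are divided with a near-identical copy, and 1 other is not reported here. The compared libraries, the 33 gene lists and the naming rule were chosen with earlier results of these data known. Promoters were matched to RefSeq by symbol or synonym, for 37 of the 46 higher and 55 of the 75 lower genes.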

Additional observations from a re-analysis of the deposited data

How the results depend on the processing

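At a limit of 1.5-fold, 1979 genes differed with siRNA 2, 2678 with siRNA 4 and 607 alike with both (279 higher, 328 lower). At 4-fold these were 34, 80 and 7 (4 higher, 3 lower), the 7 being RPL36A-HNRNPH2, ANKRD20A1, ZNF213 and CKAP4 above the control and BLOC1S5-TXNDC5, CPEB3 and ELL2 below it. The number moved alike was 99 to 157 under other scalings, pseudocounts and filters, and 95 of the 121 genes were shared with the set on deposited TPM. The split of 46 higher and 75 lower genes was more even on other scales. It was 56 and 65 with total library size, and 53 and 66 with DESeq2 size factors. The edgeR test of silencing in HCC15 called 0 genes. DESeq2 called 28 and the fit with the number of the siRNA as a replicate block called 114, whereas limma-voom, limma on TPM, the 3 HCC15 libraries alone, DESeq2 size factors, no filter on counts and leaving out each library that could be left out called 0. The cause was not tested. The test that compares the responses of the lines called 0 genes under each alternative, the block included. Without the HCC15 control library no response can be computed. Values past 2-fold of named genes and list members had 701 alternatives, of which 671 moved by no more than a limit, 30 moved by more and 0 changed sign. The limit was the distance from the middle of the counting interval to its end, or a fixed value where that was very small or undefined. With 1 library per siRNA, the spread between cultures is unknown.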

Other observations

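In HCC15, 9 genes were at least 2-fold higher with siRNA 2 and 2-fold lower with siRNA 4, and 2 genes, EGR1 and C17orf58, were the reverse. The genes named here were chosen after their values were seen. EGR1, an immediate early transcription factor, was at 22.6 CPM in the control, 7.71 with siRNA 2 and 73.2 with siRNA 4, and at 73.6, 121 and 89.0 CPM in A427. ATP2B4, a calcium pump of the plasma membrane, was at 82.4, 172 and 12 CPM in HCC15. Cingulin (CGN), a protein of tight junctions, was at 19.1, 39.4 and 3.94 CPM. NCOA7 was at 37.3, 76.2 and 14.4 CPM in HCC15 and had the same order in A427, at 18.4, 37.3 and 8.45 CPM. LMLN likewise was at 6.12, 17.7 and 2.46 CPM in HCC15 and 28.2, 69.6 and 10.1 CPM in A427.

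F2RL2, a protease-activated receptor gene, had 50 reads in the HCC15 control, 26 with siRNA 2 and 1210 with siRNA 4, a difference of 4.31 with siRNA 4. VGF, a secreted neuropeptide precursor, was at 63.9, 79.6 and 331 CPM in HCC15 and at 55.2, 137 and 57.7 CPM in A427, so the siRNA with the higher value was not the same in the lines. Both genes were picked after their values were seen, and neither difference was tested.

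Further genes moved alike, also chosen after their values were seen, were the lysosomal lipase LIPA (28.8, 79.9 and 65.6 CPM), the nuclear lamin LMNB1 (120, 244 and 293 CPM) and the spindle protein NUSAP1 (118, 301 and 292 CPM). PRKAA2, a catalytic subunit of AMP-activated kinase, was at 127, 33.9 and 54.6 CPM, and the lysosomal amino acid transporter SLC36A1 at 41.0, 8.77 and 17.4 CPM. PDHX, a component of the pyruvate dehydrogenase complex, was at 55.3, 27.2 and 13.6 CPM.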
